A study of Mus musculus with 2 samples.

Results

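The miR-99/100 and miR-125 families were followed in the mouse melanoma line B16 through 5 miRNAs taken by name from the array: mmu-miR-99a-5p, mmu-miR-99b-5p, mmu-miR-100-5p, mmu-miR-125a-5p and mmu-miR-125b-5p. They are 5 of the 1900 miRNA probes on each array, with 1 spot apiece. The cells, grown in medium with 5% fetal bovine serum and preincubated for 24 h, received a Fam222B siRNA or a control siRNA by lipofection with Lipofectamine RNAiMAX, and total RNA was taken 48 h later. The labels do not say whether the cultures were grown separately. Each treatment had 1 array (n = 1), so no value has an error between cultures and no test between treatments was possible. Fam222B mRNA is not measured by these probes, and the extent of the knockdown was not analysed here.

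miRNAs of the miR-99/100 family recognise their targets through a shared seed (bases 2 to 8 from the 5′ end) and are known to act on the growth signalling genes Mtor and Igf1r. The miR-125 family is the vertebrate counterpart of lin-4, the developmental timing miRNA of the worm Caenorhabditis elegans, and acts on Lin28 genes, whose proteins block let-7 maturation. In human melanoma cells miR-125b is reported to act on JUN. Members of both families are transcribed together with a let-7 miRNA, a family that restrains growth genes.

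The mature sequences, from RefSeq on the mouse build GRCm38.p6, are shown because they set which members could share targets and which probes could see near-identical RNAs. Capitals mark the seed.
miR-99a-5p: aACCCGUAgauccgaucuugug
miR-100-5p: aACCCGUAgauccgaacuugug
miR-99b-5p: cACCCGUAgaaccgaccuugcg
miR-125a-5p: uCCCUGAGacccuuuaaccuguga
miR-125b-5p: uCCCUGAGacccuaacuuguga
miR-99a-5p and miR-100-5p differed at 1 of 22 positions, U16A with miR-99a-5p first and positions counted from the 5′ end. miR-99b-5p differed from miR-99a-5p at 4 positions and also from miR-100-5p at 4. miR-125a-5p (24 bases) and miR-125b-5p (22 bases) shared their first 13 bases.

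The members come from 3 host clusters, each with a miR-99/100 hairpin, a let-7 hairpin and a miR-125 hairpin in that order on the plus strand. miR-99a-5p lies at chr16:77598940-77598961, ahead of let-7c-1 and of the miR-125b-2 copy of miR-125b-5p at chr16:77646279-77646300. miR-100-5p lies at chr9:41531437-41531458, ahead of let-7a-2 and of the miR-125b-1 copy at chr9:41581940-41581961. miR-99b-5p lies at chr17:17830194-17830215 and miR-125a-5p at chr17:17830817-17830840, with let-7e between them. The chromosome 17 cluster spans 0.647 kb, against 47.4 kb on chromosome 16 and 50.5 kb on chromosome 9. In the RefSeq annotation the chromosome 9 hairpins lie within the non-coding gene Mir100hg, those on chromosome 17 within Spaca6, and those on chromosome 16 beyond the annotated end of Mir99ahg, their neighbour. The mature miR-125b-5p of both copies is the same sequence, so its signal cannot be assigned to either cluster.

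The value of a miRNA is its spot median minus the mean of the array's 896 blank spots, 70.3 intensity units on the control-siRNA array and 69.9 on the Fam222B-siRNA array, and is called net signal. A miRNA counted as detected above a net signal of 2.28 units with control siRNA and 2.59 with Fam222B siRNA, the mean plus 2 SD of the trimmed blank spots. By this limit 1219 probes (64.2%) were detected on the control-siRNA array, 958 (50.4%) on the Fam222B-siRNA array and 910 on both. Errors below are spot SDs, which join the scatter of blank spots (SD 1.54 units for control siRNA, 1.66 for Fam222B siRNA) with the CV of 5 control probes printed 8 times (4.67% and 4.78%). They cover spread between spots of 1 array only. All 3 melanocyte miRNAs were detected on both arrays. Of these, miR-211-5p gave 264 net units with control siRNA and 326 with Fam222B siRNA, miR-211-3p gave 83.3 and 70.4, and miR-204-5p gave 36.3 and 30.2. The 5 epithelial miRNAs summed to 13.96 and 6.25 net units and the 5 blood cell miRNAs to 27.9 and 15.2. With control siRNA 5 of 5 epithelial and 4 of 5 blood cell miRNAs were detected, and with Fam222B siRNA 1 of 5 of each. The epithelial miRNAs lay between 2.38 and 3.12 net units with control siRNA, near the limit, and between -1.25 and 3.66 with Fam222B siRNA. Of the neuron miRNAs, miR-9-5p gave 129 and 143 net units and miR-124-3p 3.56 and 1.51. The red cell miRNA miR-451a was detected on both arrays, at 13.5 and 12.2 net units, and miR-142a-3p, found across blood cells, on neither. The 4 miRNAs of fibroblasts and smooth muscle were all detected on both arrays, at summed net signals of 215 and 180. Of these, miR-143-3p gave 140 and 112 net units and miR-145a-5p 54.0 and 42.9. The others were higher with Fam222B siRNA, miR-199a-5p at 10.7 and 13.5 and miR-214-3p at 10.3 and 11.6. The part of these cell types in the members' values was not tested.

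All 5 members were detected on both arrays, at 26.4 to 52.4 times the SD of the blank spots. Among the miR-99/100 members, miR-99a-5p gave 80.6 net units (spot SD 4.07) with control siRNA and 75.6 (spot SD 3.97) with Fam222B siRNA. miR-100-5p gave 80.5 (spot SD 4.06) and 66.9 (spot SD 3.60), the largest drop in net units of the 5. miR-99b-5p gave 45.7 (spot SD 2.63) and 43.8 (spot SD 2.67). All 3 were thus lower on the Fam222B-siRNA array before any scaling, and only for miR-100-5p did the ranges of 1 spot SD not meet. In RNA pooled from a whole culture, fewer cells with a miRNA and less of it per cell cannot be told apart.

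Of the miR-125 members, miR-125b-5p gave 60.5 net units (spot SD 3.22) with control siRNA and 57.5 (spot SD 3.21) with Fam222B siRNA. miR-125a-5p gave 48.5 (spot SD 2.74) and 52.0 (spot SD 2.99), and was the 1 member of the 5 that was higher on the Fam222B-siRNA array before scaling. Levels of different probes are not ranked, since each probe has its own hybridisation strength. Summed over the 5, net signal was 316 units on the control-siRNA array and 296 on the Fam222B-siRNA array.

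**Figure D1:**
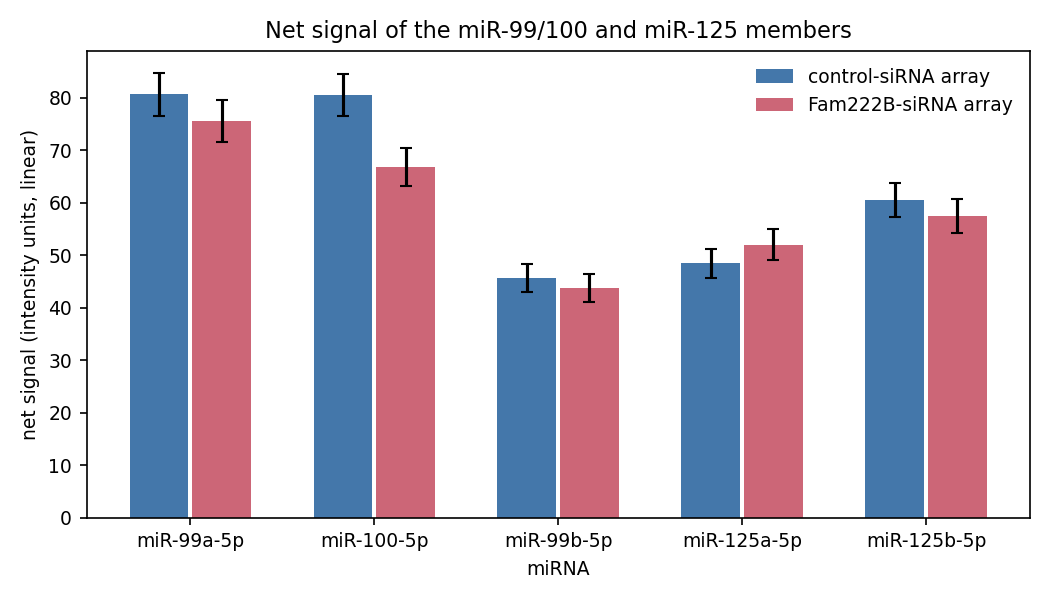
Net signal (intensity units, linear axis) of each member on the control-siRNA array (blue) and the Fam222B-siRNA array (red), 1 spot per bar, with error bars of 1 spot SD. The pairs of bars overlap within their errors for miR-99a-5p, miR-99b-5p, miR-125a-5p and miR-125b-5p, while miR-100-5p stands at 80.5 against 66.9 units.

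The arrays were put on one scale by multiplying the Fam222B-siRNA values by 1.09, which gave the 910 miRNAs detected on both equal medians. This moves every log2 difference (Fam222B-siRNA over control-siRNA) up by 0.12. On that scale miR-125a-5p was at 0.22 (spot SD 0.12), 117% of its control-siRNA signal. miR-100-5p was at -0.15 (spot SD 0.11), or 90.4%. miR-99b-5p was at 0.061 (spot SD 0.12), miR-125b-5p at 0.048 (spot SD 0.11) and miR-99a-5p at 0.029 (spot SD 0.11). The signs of miR-99a-5p, miR-99b-5p and miR-125b-5p turned without the scaling, at -0.093, -0.062 and -0.074, and each stayed within 1 spot SD of 0 on both scales.

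None of the 5 members differed by 2-fold, a limit that 2.97% of the 910 miRNAs reached on the higher side and 2.42% on the lower. None lay more than 2 spot SD from 0 either, against 7.91% of the 910 above it and 1.54% below. With intervals of 95% built from the spot SD, miR-125a-5p lay between -0.0038 and 0.45, and miR-100-5p between -0.35 and 0.063. Without scaling miR-100-5p was at -0.27 and past 2 spot SD, as were 6.26% of the 910 on the lower side. The same member was past it with the background taken from the No Probe spots (-0.23) and with the medians of the 96 miRNAs of at least 100 net units made equal (-0.22), and each of these settings put 3.85% of the 910 past it on the lower side. With the control probes made equal miR-125a-5p was past it on the higher side (0.28), as were 12% of the 910.

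The 5 members had a median log2 difference of 0.048, 4 of them above 0 and 1 below. Over all 910 miRNAs the median was 0.0040, with 459 above 0 and 451 below. Over the 78 other miRNAs between 40 and 100 net units on both arrays, a range chosen to match the members after their values were seen, the median was 0.048 and the quartiles were -0.057 and 0.15. Of these 78, 15.4% passed 2 spot SD on the higher side and 0% on the lower, while without scaling 15.4% passed it on the lower side. The members' median therefore stood at that of probes of like signal. miR-125a-5p and miR-100-5p lay outside the quartiles of these, and the other members within them. Quartiles leave out about as many of the 78 probes as they hold, so this does not set those members apart.

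**Figure D2:**
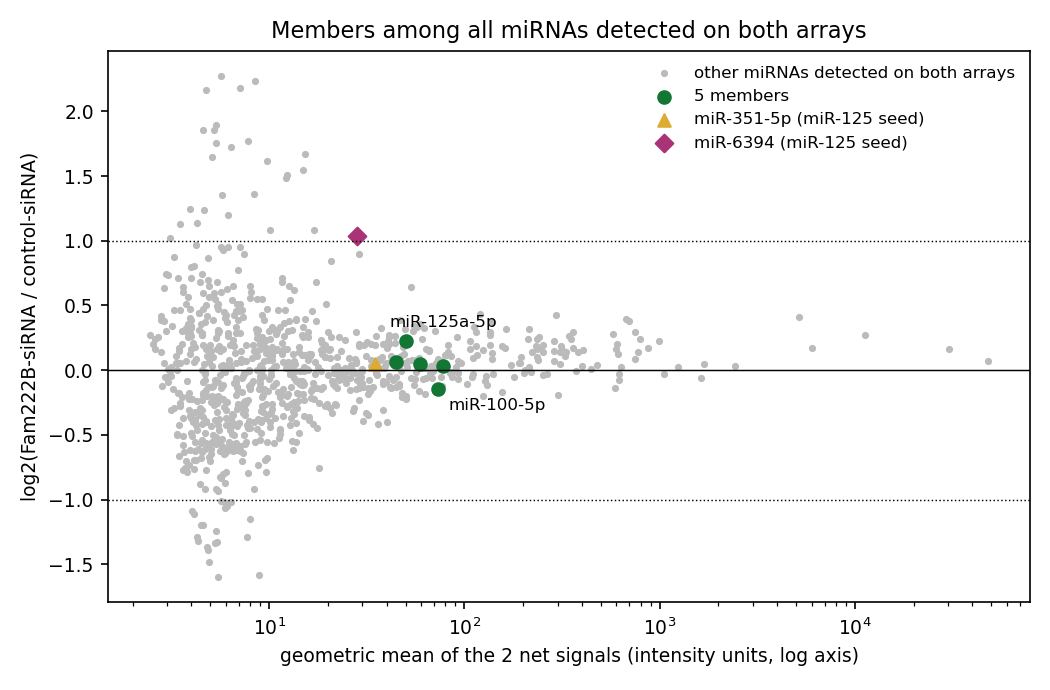
Log2 difference (vertical axis) against the geometric mean of both net signals (intensity units, log axis) for the 910 miRNAs detected on both arrays, with the 5 members in green, the seed relatives miR-351-5p and miR-6394 marked, and dotted lines at 2-fold. The members lie between -0.15 and 0.22, well inside the dotted lines, and miR-6394 lies at 1.04.

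Comparison within host clusters asked whether miRNAs encoded in one cluster shifted together. The transcripts of the clusters were not measured. In the chromosome 17 cluster miR-125a-5p exceeded miR-99b-5p in log2 difference by 0.16 (spot SD 0.17, 95% interval -0.17 to 0.49). In the chromosome 16 cluster miR-125b-5p exceeded miR-99a-5p by 0.019 (spot SD 0.15, interval -0.28 to 0.32). In the chromosome 9 cluster miR-125b-5p exceeded miR-100-5p by 0.19 (spot SD 0.15, interval -0.11 to 0.50). The same miR-125b-5p value enters both the chromosome 16 and the chromosome 9 gap and cannot be assigned to either cluster. Of the 3 gaps, only that on chromosome 17 compares products of a single cluster. None of these 3 gaps passed 2 spot SD. The intervals cover spread between spots of 1 array only, so their ends do not bound the gaps between cultures. Set against the blocks in which the probes were printed, described at the end, the gap of miR-125b-5p to miR-100-5p was -0.15. That of miR-125a-5p to miR-99b-5p was then 0.016, and that of miR-125b-5p to miR-99a-5p was -0.13.

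Between clusters, miR-100-5p differed from miR-99a-5p, its near-identical relative, by -0.17 in log2 difference (spot SD 0.15, interval -0.47 to 0.12). miR-99b-5p differed from miR-99a-5p by 0.031 (interval -0.28 to 0.35) and from miR-100-5p by 0.21 (interval -0.11 to 0.52). miR-125a-5p differed from miR-125b-5p by 0.18 (interval -0.14 to 0.49). As families, the mean of the miR-125 members (0.14) exceeded that of the miR-99/100 members (-0.019) by 0.15 (spot SD 0.10, interval -0.047 to 0.36). None of these 5 comparisons passed 2 spot SD. Set against their blocks, miR-100-5p differed from miR-99a-5p by 0.018 and miR-99b-5p from miR-100-5p by 0.013. The gaps of miR-99b-5p to miR-99a-5p and of miR-125a-5p to miR-125b-5p stayed the same, as each pair shares a block. Family and block cannot be told apart here, since the miR-125 members share block 18 and the miR-99/100 members lie in blocks 20 and 31. Less the median of its block, miR-125a-5p was at -0.032 and miR-125b-5p at -0.21. On that basis miR-99a-5p was at -0.080, miR-100-5p at -0.062 and miR-99b-5p at -0.049. Since the miR-99a-5p and miR-100-5p sequences differ at 1 base, each probe may also bind the other RNA, which was not tested.

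The let-7 partners were all at higher signal on the Fam222B-siRNA array, with let-7c-5p at 857 and 886 net units (log2 difference 0.17), let-7a-5p at 954 and 1023 (0.22) and let-7e-5p at 252 and 255 (0.14). Of 4 comparisons of a let-7 with its neighbour in a cluster, 1 passed 2 spot SD: let-7a-5p exceeded miR-100-5p by 0.37 (spot SD 0.14), which was 0.20 on a scale with an offset of 50 units and 0.098 after each value was set against its block. Net signal differed between these probes, and its part in the gap was not tested. let-7a-5p and let-7c-5p are also made from hairpins outside these clusters, so their signal is not that of the cluster alone. let-7e-5p exceeded miR-99b-5p by 0.082 (interval -0.22 to 0.39) and lay 0.082 below miR-125a-5p in the measured values (-0.082, interval -0.38 to 0.22).

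**Figure D3:**
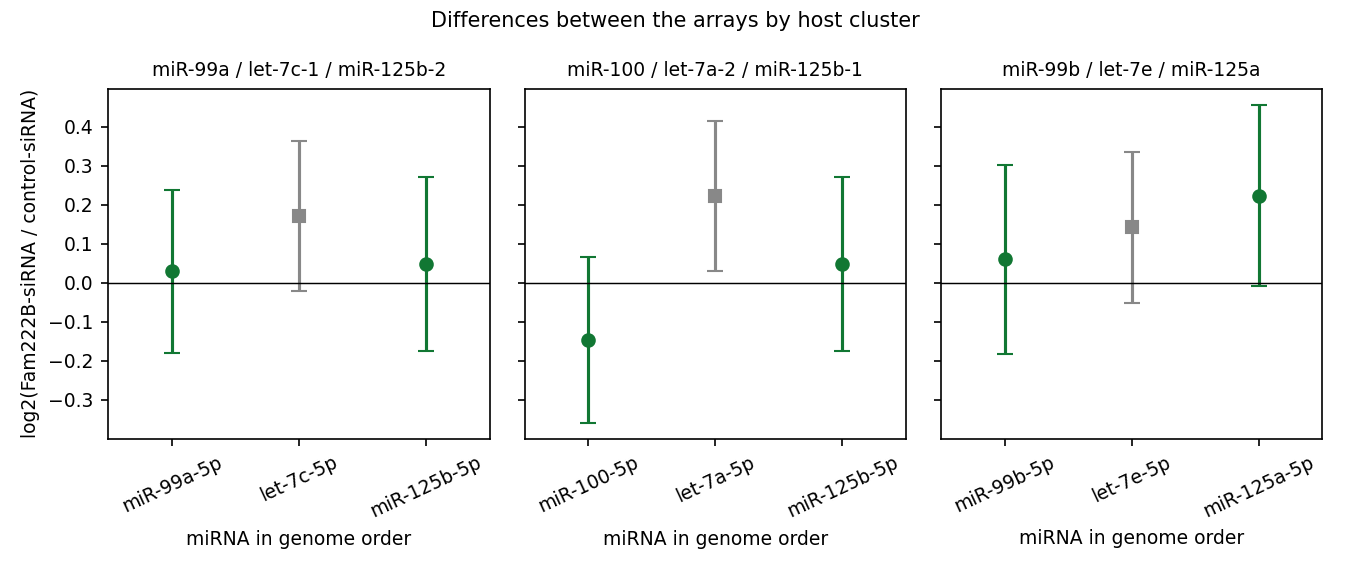
Log2 difference (vertical axis) of the mature miRNAs of each host cluster in genome order, members as green circles and let-7 partners as grey squares, with bars of 2 spot SD. miR-125b-5p appears in both clusters that encode it, and let-7a-5p is the 1 miRNA shown whose bar does not reach 0.

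The opposite arms of the hairpins could in principle tell the miR-125b copies apart, since they differ in sequence. miR-125b-1-3p gave 2.91 net units with control siRNA and 2.005 with Fam222B siRNA, and miR-125b-2-3p gave 2.92 and -0.12. Both were detected on the control-siRNA array alone and lay within 1 unit of its limit, with a ratio of at least 1.03-fold for each, so neither copy could be told apart at this signal. miR-99a-3p was also detected on the control-siRNA array alone, at 3.90 and 1.01 net units (at least 1.38-fold), and miR-100-3p on neither, at 0.87 and -1.27. These fold bounds use the lowest detected signal of the Fam222B-siRNA array. They leave out the spot SD, which for miR-99a-3p was 1.55 units with control siRNA. Of all 1900 probes, 1219 were detected with control siRNA, 958 with Fam222B siRNA and 910 on both arrays. miR-99b-3p gave 7.93 and 7.20 net units (log2 difference -0.018, spot SD 0.45).

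miR-125a-3p, the other arm of the miR-125a hairpin, gave 592 net units with control siRNA and 608 with Fam222B siRNA. Its sequence is shown because it lay far above the blank spots on both arrays, at 385 and 366 times their SD.
miR-125a-3p: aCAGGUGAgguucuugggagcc
Its log2 difference was 0.16 (spot SD 0.097), and it differed from miR-125a-5p by -0.063 (interval -0.36 to 0.23), or by 0.40 after each was set against its block. The median over the 96 miRNAs of at least 100 net units on both arrays was 0.14.

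The seed of the miR-125 members, CCCUGAG, was found in 3 further miRNAs of the array among 1614 matched to RefSeq of the 1888 probes that name 1 miRNA. No further matched miRNA held the miR-99/100 seed, ACCCGUA. The relatives are shown because their values differed widely although their seeds are the same.
miR-351-5p: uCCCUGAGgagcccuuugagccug
miR-6394: uCCCUGAGuggggccaggucu
miR-6367: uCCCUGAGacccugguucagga
miR-351-5p gave 35.7 and 33.9 net units (log2 difference 0.045, spot SD 0.13), close to miR-125b-5p at 0.048. miR-6367 shares its first 13 bases with miR-125b-5p and was not detected on either array, at 0.61 and -0.0080 net units. miR-6394 gave 20.6 net units with control siRNA and 38.9 with Fam222B siRNA, a log2 difference of 1.04 (spot SD 0.16) or 2.06-fold. Without scaling its log2 difference was 0.92, short of 2-fold. It was printed in block 25, where the 35 other miRNAs detected on both arrays had a median of 0.28, and on the scale with an offset of 50 units it was at 0.34. The part of the block in its value was not tested.

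miR-10a-5p and miR-10b-5p, encoded in Hox gene clusters, resemble the miR-99/100 members in sequence but carry a different seed, ACCCUGU. miR-10a-5p shares a run of 11 bases with miR-100-5p. miR-10a-5p gave 24.4 and 17.8 net units (log2 difference -0.33, spot SD 0.19) and miR-10b-5p 10.6 and 7.80 (-0.32, spot SD 0.38). Both were within 2 spot SD of 0, but without scaling miR-10a-5p was at -0.45 and past it. Without scaling 6.26% of the 910 miRNAs were past it on the lower side, and their median was -0.12. The 3 miRNAs of at least 100 net units whose log2 difference was nearest to the members' median were miR-26a-5p (0.051), miR-690 (0.045) and miR-6240 (0.044), among 96. With 2 arrays this likeness rests on a single difference.

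The blocks in which the members were printed differed in their medians. miR-125a-5p and miR-125b-5p were printed in block 18, where 34 other miRNAs detected on both arrays had a median log2 difference of 0.26. miR-99a-5p and miR-99b-5p were printed in block 20, with a median of 0.11 over 25 others, and miR-100-5p in block 31, with -0.084 over 21 others. Over the 32 blocks of the array these medians ran from -0.21 to 0.36. Less the median of its block, miR-125a-5p was at -0.032, miR-125b-5p at -0.21, miR-99a-5p at -0.080, miR-100-5p at -0.062 and miR-99b-5p at -0.049, all within 2 spot SD. For the brighter neighbours, those of 20 net units or more in both samples, the medians were 0.072 over 11 in block 18, 0.034 over 7 in block 20 and -0.037 over 7 in block 31, each nearer 0 than that of the whole block. Mean blank signal on the control-siRNA and Fam222B-siRNA arrays was 70.2 and 70.1 in block 18, 69.8 and 70.9 in block 20 and 69.9 and 70.6 in block 31, and with these blank spots as background miR-125a-5p was at 0.23 and miR-100-5p at -0.15. The part of print position in the members' values was not tested.

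**Figure D4:**
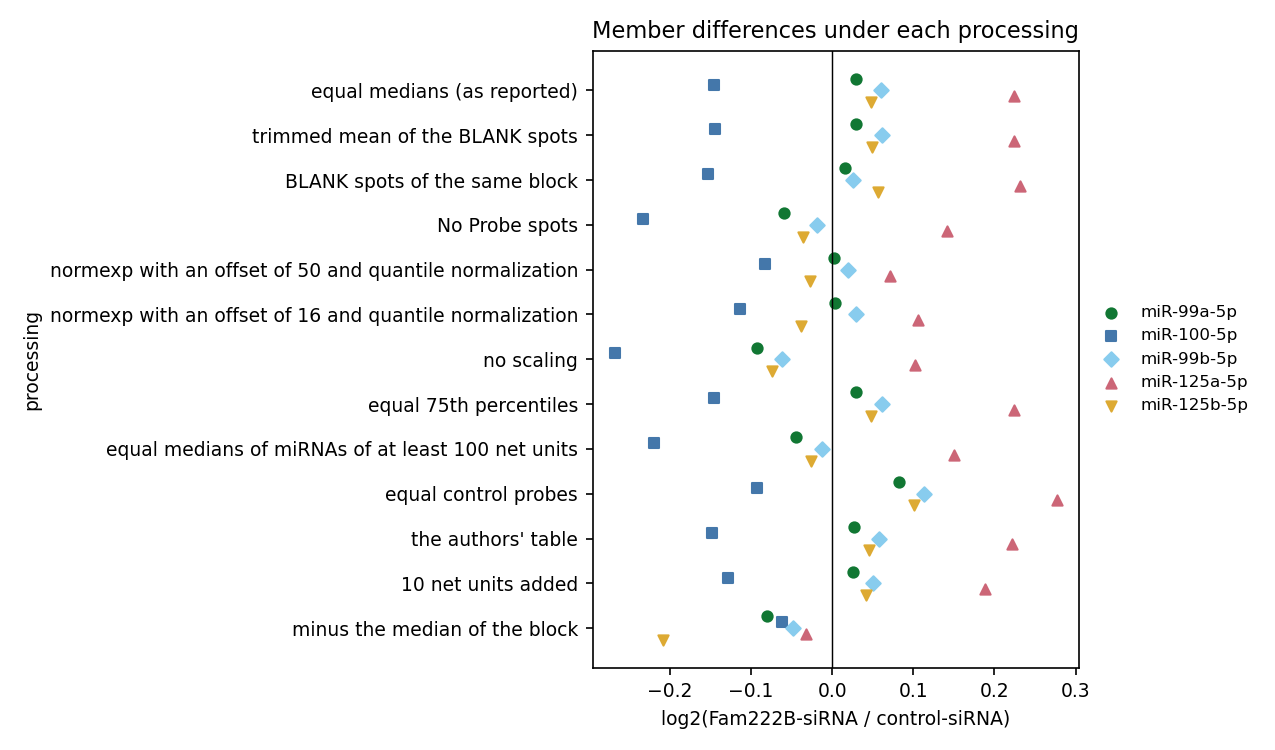
Log2 difference (horizontal axis) of each member under the processing reported (top row) and under the 12 alternatives that gave a value. miR-100-5p lies below 0 in all 13 rows and miR-125a-5p above 0 in 12, while miR-99a-5p, miR-99b-5p and miR-125b-5p lie on both sides.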

How the data were processed

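Total RNA of 2 B16 samples was labelled with Cy5 and hybridised to 3D-Gene miRNA arrays of 1 colour, per the labels' protocols. The deposited scanner files give spot median intensity in the Cy5 channel with no background subtracted, per the file headers. The scanner software is not given in the sources used here. The authors' deposited table of processed intensity follows the spot medians linearly, with factors of 3.40 and 3.69 and backgrounds of 70.2 and 69.8, and medians of 25.0 and 34.6 over 1220 and 961 probes.

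The members and lists were chosen with earlier results of these data known. Net signal was the spot median minus the mean of the blank spots, and 1 spot with an NG flag was left out of detection on each array. normexp with an offset of 50 units and quantile normalization (limma 3.58.1, R 4.3.3) was an alternative and not the scale reported, since an offset damps signals of this size. RefSeq names, sequences and neighbouring genes are those of GRCm38.p6. Scripts ran in Python 3.11.15 and were tested on simulated arrays. Named miRNAs are the members, their opposite arms, the let-7 products of their clusters, seed relatives and the 3 nearest in difference.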

Additional observations from a re-analysis of the deposited data

How the results depend on the processing

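Other choices of background, scaling, offset, detection limit and threshold were tried, and 1 more, the subtraction of block medians, was chosen after seeing the data. The files' own background column was at or above the spot for 5 of 5 members on the control-siRNA array and 4 of 5 on the Fam222B-siRNA array, so it gave no member a value. The number of members lower by more than 2 spot SD was 0 as reported and 1, miR-100-5p, with the No Probe spots (3.85% of the 910 miRNAs), with no scaling (6.26%) and with equal medians of bright miRNAs (3.85%). The number higher was 0 as reported and 1, miR-125a-5p, with equal control probes (12%). With the block medians subtracted miR-125a-5p moved to -0.032 and miR-125b-5p to -0.21, and the cause was not tested. The median of all 910 miRNAs was -0.12 with no scaling, -0.070 with equal bright miRNAs and 0.057 with equal control probes. Across settings miR-100-5p ran from -0.27 to -0.062, miR-125a-5p from -0.032 to 0.28, miR-99a-5p from -0.093 to 0.082, miR-99b-5p from -0.062 to 0.11 and miR-125b-5p from -0.21 to 0.10. At 1.5-fold, still 0 members passed. With detection at 5 SD the members stayed at 5 on each array and the opposite arms fell from 5 to 2 on the control-siRNA array. No paired analysis was possible because each group has 1 array. The number of arrays limits the precision, and weak opposite arms lie near the blank spots.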
